A study of Mus musculus with 4 samples.

Results

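Integrin and laminin subunits were examined in primary smooth muscle cells of the mouse aorta, compared between cells with a floxed Atg7 gene and cells with the intact gene. The rule for the genes used their names and no measured value: every array probe whose gene symbol is that of an integrin alpha chain, an integrin beta chain or a laminin alpha, beta or gamma chain. This gave 35 genes of the 28307 named on the array, 25 integrin and 10 laminin subunits, carried by 78 of 41174 probes. Of these genes, 21 were bright enough to be tested among 12367 tested in all: 15 integrin and 6 laminin subunits. The tested genes therefore are not all members of either family.

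The cells were of the genotypes Atg7F/F SM22α-Cre+ and Atg7+/+ SM22α-Cre+, both written with strain C57LB/6. Both thus carried the SM22α-Cre transgene, which expresses the Cre recombinase from a smooth muscle promoter, and differed in the floxed allele of Atg7, an enzyme needed to build autophagosomes. Cultures were kept in DMEM/F-12 that contained 10% FBS and were taken at passages 4 to 10, so cultures of different passage may stand side by side. The age and sex of the mice and any treatment are not given. The labels name 2 biological replicates of each genotype, without saying whether these are separate mice. The p-values measure only the spread between these samples, which the test draws toward a spread estimated over all genes tested. Each array compared 1 extract of each genotype with the same replicate number, 1 in Cy5 and 1 in Cy3, and a second array swapped the dyes. This gave 4 arrays and n = 2 ratios, each the mean of a dye swap. The number of arrays limits the precision.

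Integrins are cell surface receptors made of 1 alpha and 1 beta chain, and the pair decides which matrix protein is bound. Laminins are trimers of 1 alpha, 1 beta and 1 gamma chain and form the sheet of the basement membrane that surrounds each smooth muscle cell of the arterial media. Integrins link this sheet, collagen and fibronectin to the actin skeleton through talin, paxillin and other adaptors, and are carried back and forth between the cell surface and endosomes.

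As a check of the labels, the Atg7 probe was dimmer with Atg7F/F than with Atg7+/+ RNA on all 4 arrays, with a log2 ratio of Atg7F/F over Atg7+/+ of -1.22 ± 0.07 (SD, n = 2), or 2.33-fold lower. Whether this probe lies in the removed part of the gene is not given in the sources used here. All 4 arrays were on 1 slide, and the median raw intensity over all probes lay between 88.9 and 94.1 in the Cy5 channels and between 58.1 and 59.7 in the Cy3 channels. The defining smooth muscle markers were present: 7 of 8 listed markers were tested, and their summed log2 signal lay between 17.58 and 18.03 in the 4 extracts.

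Each value below rests on hybridization to a 60-base probe, so what a probe reads is part of its result. The 8 sequences shown are a selection. Some bear on how far the probes of a gene can vouch for each other, and the others read genes described below. None is shown for Itga11, Itga6 or Itgb3. The files give the positions on mm9. Without an annotation of mm9 to set them against, the exon or untranslated region that a probe reads is not stated. The positions of the probes that span more than their own length cover the intervening genomic sequence too. Of the Itgb4 probe, only the first 30 bases of the stretch of 50 bases that both of its tested probes share are shown. The positions beside them are those of the whole 60-base probe. In both Lama4 probes, capitals mark the 29 bases that they share.
Itgb4, chr11:115869557-115869616, plus strand: cataaagtgggtagaggtgatacaaggtct
Lama4, brightest probe, chr10:38825794-38825853, plus strand: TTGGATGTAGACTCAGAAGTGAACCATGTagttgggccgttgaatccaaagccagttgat
Lama4, dimmer probe, chr10:38825032-38825822, plus strand: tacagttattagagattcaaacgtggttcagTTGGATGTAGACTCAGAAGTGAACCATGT
Lama2, chr10:26704229-26704288, minus strand: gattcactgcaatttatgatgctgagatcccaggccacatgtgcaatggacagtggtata
Itga7, chr10:128390852-128390911, plus strand: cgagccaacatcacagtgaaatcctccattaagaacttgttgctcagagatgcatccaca
Itga3, dimmest of its probes, chr11:94915485-94917062, minus strand: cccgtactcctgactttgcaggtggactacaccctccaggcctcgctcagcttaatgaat
Itgb1, brighter probe, chr8:131246349-131246408, plus strand: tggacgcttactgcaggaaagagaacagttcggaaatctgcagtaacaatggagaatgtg
Lamb2, chr9:108392189-108392248, plus strand: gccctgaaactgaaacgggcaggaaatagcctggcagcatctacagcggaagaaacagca

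No integrin or laminin gene passed the test across all genes. Of the 21 tested, 0 had a Benjamini-Hochberg adjusted p below 0.05 in limma, against 0% of all genes, and the adjusted p of each was 0.999808. Atg7 itself was not called by this fit either (limma unadjusted p = 0.000606978, adjusted p = 0.938312). A gene that was not called is therefore not shown to be unchanged. At an unadjusted p below 0.05, the limma fit held 1 of the 21, Itgb4, which was lower, against 1.64% of all genes lower, 1.34% higher and 2.98% in either direction. On all 4 arrays 2 genes were higher in Atg7F/F cells, Itgav and Lama4, against 10.6% of all genes, and 2 were lower, Itgb4 and Lama2, against 9.95%. These shares are near those of all genes. With arrays centred on their median in place of loess, Itgb4 was the only subunit that kept one sign on all 4. That setting also left fewer of all genes with one sign, 4.86% higher and 2.14% lower. A mean of 0.5 or more in size was found for 2 higher genes, Itga11 and Itgb3, against 1.36% of all genes, and for 2 lower genes, Itgb4 and Itga6, against 1.06%. The mean log2 ratio of 15 genes lay within 0.2 of 0, and the median was 0.07 for the 15 integrins and 0.05 for the 6 laminins, beside 0.00 for all genes tested.

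**Figure D1:**
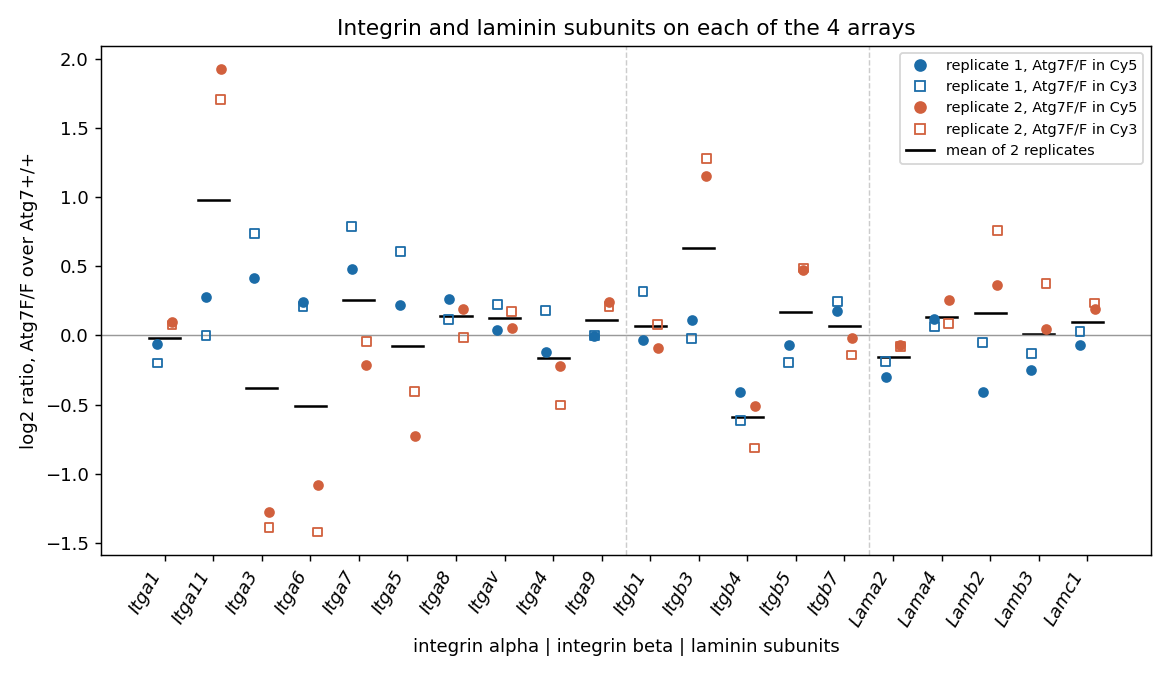
Log2 ratio of Atg7F/F over Atg7+/+ on each array (vertical axis) for 20 of the 21 tested integrin and laminin subunits (horizontal axis); filled and open points are the 2 dye orientations, colours the 2 replicates, and the bar their mean. Itgb4 lies below 0 on all 4 arrays, while Itga3 and Itga6 lie above 0 in replicate 1 and at -1.08 or lower in replicate 2.

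The replicates differed in many of these genes. In 11 of the 21 genes the ratio had one sign on both dye orientations of replicate 1 and the other sign on both of replicate 2, against 26.8% of all genes. In 4 genes, Itga3, Itga6, Itga11 and Itgb3, the ratios of the replicates lay 1 log2 unit or more apart, against 2.98% of all genes. The median distance between the replicate ratios was 0.39 for integrins and 0.27 for laminins, beside 0.17 for all genes. These shares are descriptions of the chosen genes with no test. Itga3, Itga5, Itga7, Itga8, Itgb1, Itgb5 and Lamb2 are described in full because of values already seen, the others by their sign, size or p.

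The 3 alpha chains that bind laminin were all higher in Atg7F/F cells in replicate 1 and lower in replicate 2. Itga3 encodes a chain that pairs with the Itgb1 product as a receptor for the laminins of epithelial and vascular basement membranes. In replicate 1 its normalized log2 signal was 9.65 for Atg7F/F against 9.08 for Atg7+/+, and in replicate 2 it was 8.45 against 9.78. The Atg7+/+ extract of replicate 2 was thus the highest and the Atg7F/F extract of replicate 2 the lowest, and the genotypes overlapped. The ratio was 0.42 and 0.73 on the arrays of replicate 1 and -1.28 and -1.39 on those of replicate 2, which is 1.49-fold higher and 2.52-fold lower. The mean was -0.38 ± 1.35 (SD, n = 2), with a 95% interval of -2.05 to 1.29. Its other probes went the same way at smaller size, with 0.49 and -1.04 on one and 0.24 and -0.35 on the dimmest, whose sequence is shown above.

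Itga6 encodes the alpha chain that pairs with either the Itgb1 or the Itgb4 product. Its log2 signal was 9.30 and 8.80 in the Atg7F/F extracts and 9.08 and 10.05 in the Atg7+/+ extracts, and only the Atg7+/+ extract of replicate 2 stood high. The ratio was 0.24 and 0.21 on the arrays of replicate 1 and -1.08 and -1.42 on those of replicate 2. The mean was -0.51 ± 1.04 (SD, n = 2; limma unadjusted p = 0.308899), with a 95% interval of -1.81 to 0.79. The second probe gave 0.15 and -0.61 in the replicates. Itga7, whose chain is the laminin receptor typical of muscle, had log2 signals of 7.44 and 6.94 in Atg7F/F and 6.80 and 7.07 in Atg7+/+ extracts. The arrays of replicate 1 gave ratios of 0.48 and 0.79, those of replicate 2 gave -0.21 and -0.04, so the difference between the genotypes was in the first replicate. This Itga7 probe was dim, and the other Itga7 probe was well above background in no channel.

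Among the 4 alpha chains that bind collagen, Itga11 and Itga1 were tested. Itga11, a collagen receptor of fibroblasts and other mesenchymal cells, had a raw intensity of 1682 and 951 in the Atg7F/F channels of replicate 1 (Cy5, then Cy3) and 4707 and 3432 in those of replicate 2. The Atg7+/+ channels read 1325 and 976 in the first replicate, and 1464 and 944 in the other. The Atg7F/F extract of replicate 2 stood above the other 3 extracts, which lay between 10.12 and 10.27 in normalized log2 signal, against 12.09. Ratios were 0.28 and -0.00 on the first pair of arrays but 1.93 and 1.71 on those of replicate 2, or 3.52-fold higher in the latter. The mean of 0.98 ± 1.19 (SD, n = 2; limma unadjusted p = 0.128659) had a 95% interval of -0.50 to 2.45. Itga1 was at -0.02 ± 0.15. Itga2 and Itga10 were well above background in no channel.

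The alpha chains that recognize the RGD sequence of fibronectin and vitronectin differed less. Itgav, the common alpha chain of the vitronectin receptors, had ratios of 0.04 and 0.22 on the arrays of replicate 1, and of 0.05 and 0.17 on those of replicate 2. It was higher on all 4 arrays, by 0.12 ± 0.01 (SD, n = 2; limma unadjusted p = 0.237663), and its log2 signals of 10.07 and 10.35 in Atg7F/F overlapped with 9.94 and 10.24 in Atg7+/+ extracts. The larger value came with Atg7F/F in Cy3 in both replicates. Itga8, whose chain is abundant in contractile smooth muscle, was at 0.14 ± 0.07 with 1 array at -0.01, and its second probe at 0.16 ± 0.01 with all 4 arrays above 0. In both genotypes its signal was lower in replicate 2 than in replicate 1, by 0.95 in Atg7F/F and 0.85 in Atg7+/+ extracts, so cultures of one genotype differed more than the genotypes did. Itga5, the alpha chain of the fibronectin receptor, had ratios of 0.22 and 0.61 (replicate 1) and -0.73 and -0.40 (replicate 2), the same order of signs as the laminin-binding chains. Its mean was -0.08 ± 0.69. The related chains Itga4, which binds fibronectin and VCAM1, and Itga9 were at -0.17 ± 0.28 and 0.11 ± 0.16, and Itga4 was dim on the one of its 6 probes that was tested, which reached -1.22 with the scanner software's processed signals.

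**Figure D2:**
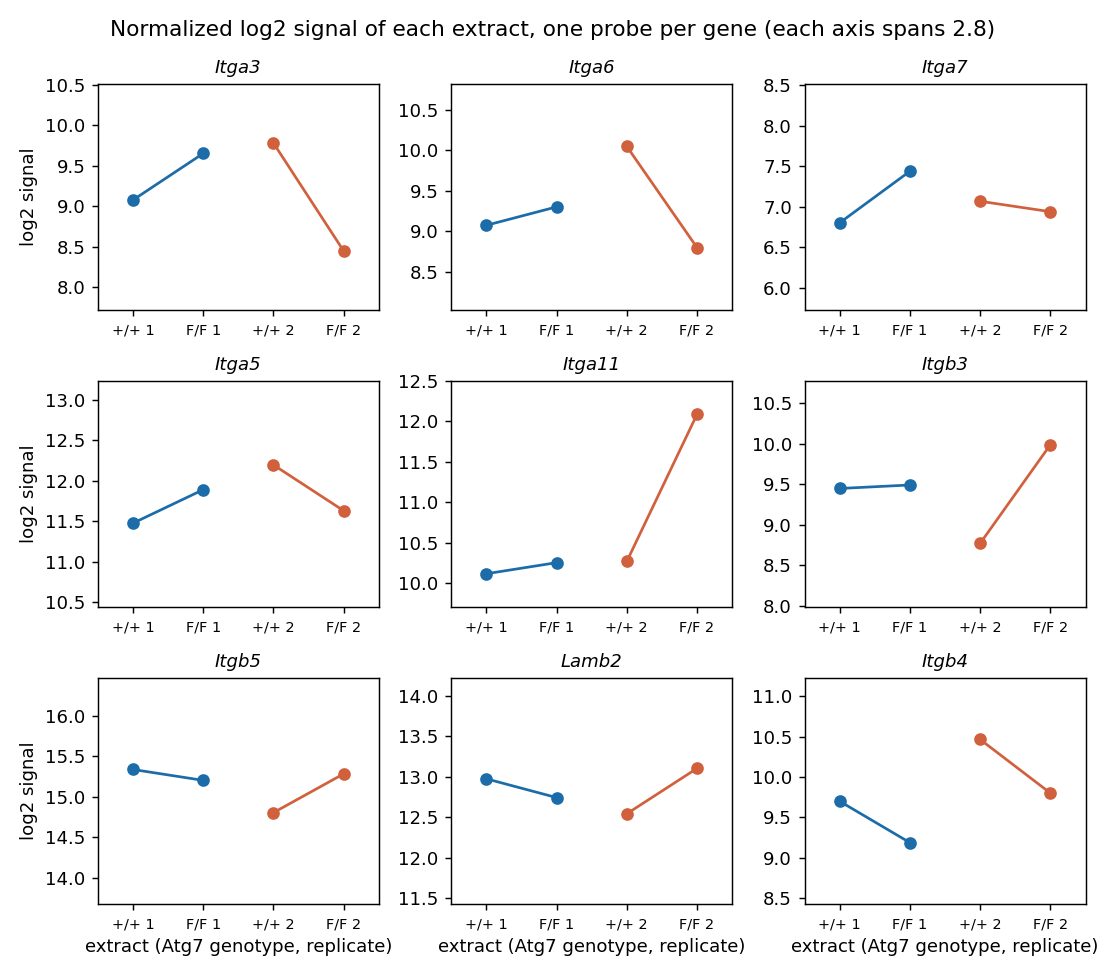
Normalized log2 signal (vertical axis, each spanning the same range) of the Atg7+/+ and Atg7F/F extracts of replicate 1 (blue) and replicate 2 (orange) for 9 subunits, 1 probe a gene, with a line joining the extracts hybridized together. The lines of Itga3, Itga6, Itga7 and Itga5 run up in replicate 1 and down in replicate 2, those of Itgb5 and Lamb2 run the other way, and those of Itgb4 run down in both.

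Of the beta chains, Itgb4 was the subunit with the smallest p. Its product pairs only with the Itga6 product, binds laminin and anchors epithelial hemidesmosomes, and it is also made by some endothelial and Schwann cells. The raw intensity of its brightest probe was 753 and 931 in Cy5 and 483 and 680 in Cy3 for Atg7F/F, replicate 1 before replicate 2. For Atg7+/+ it was 1016 and 1638 in Cy5 and 698 and 1176 in Cy3. Within each replicate and each dye the Atg7+/+ extract was the brighter one. The log2 ratio was -0.41 and -0.61 on the arrays of replicate 1 and -0.51 and -0.81 on those of replicate 2, with a mean of -0.59 ± 0.11 (SD, n = 2), or 1.50-fold lower. The limma unadjusted p was 0.0071017, the adjusted p 0.999808 and the 95% interval -0.88 to -0.29. This p and interval lean on a variance that limma estimates over all genes tested, not on the 2 ratios alone. The second probe gave -0.61 ± 0.13, but it shares 50 of 60 bases with the first and is no separate reading of the gene.

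For Itgb4 the genotypes differed about as much as cultures of one genotype did. Its log2 signal was 9.19 and 9.80 in the Atg7F/F extracts and 9.70 and 10.46 in the Atg7+/+ extracts. From replicate 1 to replicate 2 it stood 0.61 apart in Atg7F/F and 0.76 apart in Atg7+/+ extracts, so the genotypes overlapped and only the pairing of extracts on the arrays separated them. With the 4 extracts unpaired, that is with no replicate block, the limma unadjusted p of Itgb4 was 0.162.

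Itgb3, the beta chain of the vitronectin receptor induced on migrating smooth muscle cells, had ratios of 0.11 and -0.02 (replicate 1) and 1.16 and 1.28 (replicate 2). The log2 signals were 9.49 and 9.99 in Atg7F/F and 9.45 and 8.77 in Atg7+/+ extracts. The genotypes did not overlap, but in replicate 1 they lay only 0.04 apart. The mean was 0.63 ± 0.83 (SD, n = 2; limma unadjusted p = 0.155507), with a 95% interval of -0.42 to 1.68. A second, dim probe with signals between 6.67 and 6.80 gave 0.02 ± 0.04, so the gene's probes differed by over 0.5, and with the mean over both probes the gene was at 0.33.

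Itgb1, the beta chain shared by most of the alpha chains above, was at 0.07 ± 0.10 on its brighter probe. On this probe the sign followed the dye in both replicates, with -0.03 and -0.09 where Atg7F/F was in Cy5 and 0.32 and 0.08 where it was in Cy3. The second Itgb1 probe, printed in 10 spots on each array, had ratios of 0.06, 0.27, -0.43 and -0.38, and the SD over its spots was 0.0474 or less. The spots of 1 array thus lay far closer together than the replicates did. Its signs were those of Itga3 and Itga6, higher in replicate 1 and lower in replicate 2. Itgb5, a further partner of the Itgav product, had ratios of -0.07 and -0.20 (replicate 1) and 0.47 and 0.49 (replicate 2), and Itgb7 at 0.07 ± 0.21.

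**Figure D3:**
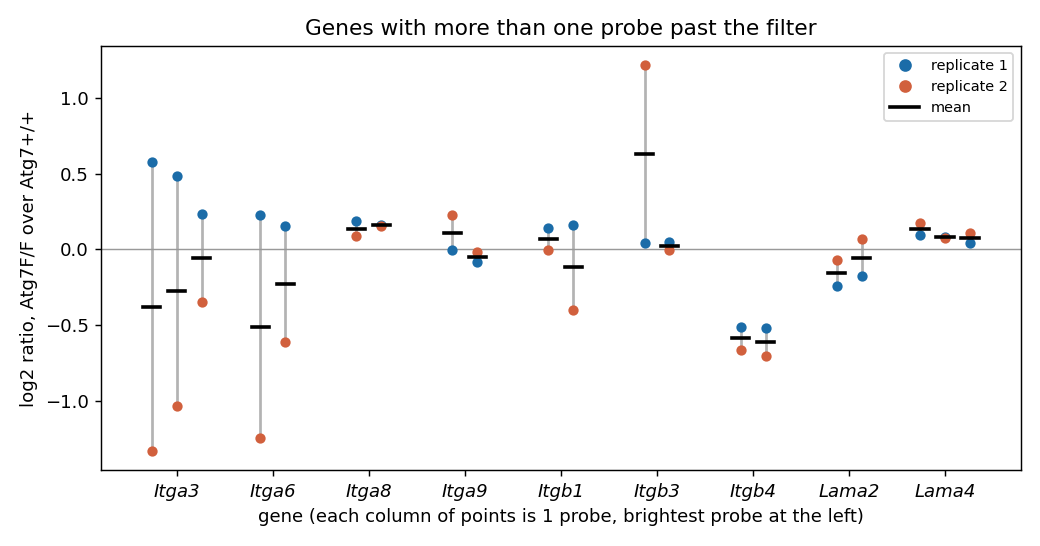
Log2 ratio of Atg7F/F over Atg7+/+ (vertical axis) in replicate 1 (blue) and replicate 2 (orange) on every probe past the filter, for 9 of the 10 genes with more than one such probe, brightest at the left; the bar is the mean of the replicates. All 3 Itga3 probes and both Itga6 probes lie above 0 in replicate 1 and below 0 in replicate 2, while the Itgb3 probes differ.

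Of the laminin chains, the mean log2 ratios farthest from 0 were those of Lamb2 at 0.16 ± 0.56 and Lama2 at -0.16 ± 0.12. Lama4, the alpha chain of the laminins of vessel walls, had ratios of 0.12 and 0.07 (replicate 1) and 0.26 and 0.09 (replicate 2), with a mean of 0.13 ± 0.06 (SD, n = 2; limma unadjusted p = 0.219673). Its log2 signals of 9.84 and 9.69 in Atg7F/F overlapped with 9.75 and 9.51 in Atg7+/+ extracts. The other Lama4 probes gave 0.08 each, and 1 of them is the overlapping probe shown above. Lama2, the alpha chain of the laminins around muscle fibres and smooth muscle cells, had ratios of -0.30 and -0.19 (replicate 1) and -0.07 and -0.08 (replicate 2). The limma unadjusted p was 0.195746, and its signals of 9.64 and 9.79 in Atg7F/F lay below 9.88 and 9.86 in Atg7+/+ extracts. This probe had 10 spots on each array, with an SD of 0.0376 or less over the spots. A dimmer Lama2 probe gave -0.06 ± 0.17 with signs that differed between the arrays.

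Lamb2 and Lamc1 encode a beta and a gamma chain found in laminins of the arterial media. Lamb2 had log2 signals of 12.74 and 13.10 in Atg7F/F and 12.97 and 12.54 in Atg7+/+ extracts. Its ratios were -0.41 and -0.05 (replicate 1) and 0.36 and 0.76 (replicate 2), with signs opposite to those of the laminin-binding integrin alpha chains. Lamc1 was at 0.10 ± 0.16, with all 4 extracts between 12.87 and 13.08. Lamb3, a chain of the laminin of epithelial basement membranes, was at 0.01 ± 0.28, with a signal between 6.54 and 6.82.

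The remaining 14 of the 35 genes were not tested. For 10 of them, Itga2, Itga10, Itgal, Itgam, Itgax, Itgb6, Itgb8, Lama1, Lama5 and Lamc3, the probes were well above background in no channel. These include the alpha chains of leukocyte integrins, the beta chains of epithelial TGF-beta-activating integrins and the alpha chain of embryonic laminin. Lama3, Itgae, Itgb2 and Itga2b were above background in some channels only, at most 2 of the 4 of a genotype. No subunit was above background on every array of one genotype and on none of the other. The probe for Lamb1, named differently in the files and so outside the chosen genes, was also well above background in no channel. A dim probe limits what can be measured and does not show that the gene is silent.

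Markers of other cell types were measured in the same extracts. All 12 endothelial markers were tested and 9 were lower in Atg7F/F cells on all 4 arrays, against 9.95% of all genes. Their median log2 ratio was -0.20 in replicate 1 and -0.43 in replicate 2, and their summed log2 signal was 13.30 and 13.53 in Atg7F/F against 13.49 and 14.48 in Atg7+/+ extracts. The sum rested mostly on Mmrn2 and Emcn, at 13.52 and 12.80 in the Atg7+/+ extract of replicate 2. The Atg7+/+ extract of replicate 2 was the highest for this sum and also for Itga3, Itga5, Itga6 and Itgb4. The summed signal of the 3 tested epithelial and mesothelial markers was highest there too, at 12.29 against 11.10 to 11.72 elsewhere, with Cdh1 and Epcam well above background in no channel. The sum in that extract rested mostly on the brightest of the 3, and each of the others was highest in another extract. The 6 tested leukocyte markers summed to between 11.07 and 12.21, with Ptprc, Adgre1 and Cd52 in no channel, and the 2 tested platelet markers to between 8.84 and 9.32, with Pf4, Ppbp and Gp5 in none. The leukocyte sum rested mostly on Lyz2, at 10.45 to 11.97, with the other tested leukocyte markers at 7.99 or lower.

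The 8 adventitial fibroblast markers had a median ratio of -0.31 in replicate 1 and 0.51 in replicate 2, and summed to between 11.55 and 12.28. Of these markers, 5 had that order of signs, which was also that of Lamb2 and Itgb5. Cd34, at -0.36 and -1.02, and Dpt, at -0.57 and -0.09, were lower on all 4 arrays, and Pdgfra was at 0.06 and 0.08. The 6 tested Schwann and neural markers had a median of 0.32 in replicate 1 and -0.24 in replicate 2 and summed to between 12.93 and 13.55. They did not move together: Sox10, a transcription factor of glia, was at 1.45 in replicate 1 and -0.48 in replicate 2, and S100b, a calcium-binding protein of glia, at -0.74 and 0.89. In bulk cultures, fewer cells of a type and less RNA per cell cannot be told apart. The part of these markers in the integrin and laminin ratios was not tested.

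**Figure D4:**
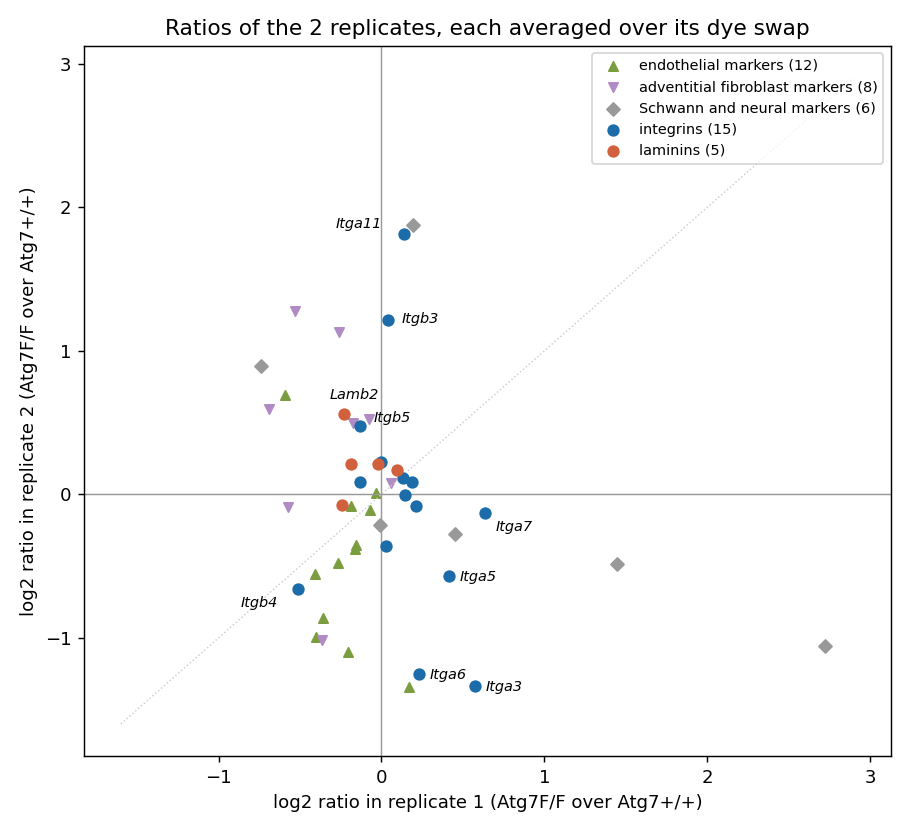
Log2 ratio of Atg7F/F over Atg7+/+ in replicate 2 (vertical axis) against replicate 1 (horizontal axis), each the mean of a dye swap, for the 15 integrins, 5 of the 6 laminins and the tested markers of 3 other cell types; the dotted line marks equal ratios. Itgb4 lies at -0.51 and -0.66 near the line, while Itga3, Itga6, Itga5 and Itga7 lie at lower right and Lamb2 and Itgb5 at upper left.

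The genes that work with these subunits were read from 5 lists, and none of their tested genes had an adjusted p below 0.05 in limma. No list was tested as a whole. Of the 31 listed adaptors and focal adhesion proteins, 30 were tested, 7 were lower on all 4 arrays and 0 were higher (9.95% and 10.6% of all genes), with a median of -0.07. Pxn, which encodes paxillin, a scaffold of focal adhesions, had log2 signals of 8.76 and 8.73 in Atg7F/F and 9.42 and 9.42 in Atg7+/+ extracts. Each Atg7F/F extract was below each Atg7+/+ extract. The ratios were -0.84, -0.49, -0.71 and -0.68, with a mean of -0.68 ± 0.02 (SD, n = 2; limma unadjusted p = 0.00328012, adjusted p = 0.999808). Ptk2b, a kinase related to focal adhesion kinase, was lower on all 4 arrays by a mean of -0.42 ± 0.17 (limma unadjusted p = 0.0258043). Csrp1, a LIM protein of smooth muscle, had a mean of -0.28 ± 0.08 but was below 0 only with Atg7F/F in Cy5.

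Another list held 13 genes, for laminin receptors that are not integrins and for proteins of the dystrophin complex. All were tested, with 1 higher and 3 lower on all 4 arrays (10.6% and 9.95% of all genes) and a median of -0.00. Sdc4, which encodes syndecan-4, a heparan sulfate co-receptor of focal adhesions, had ratios of 0.48 and 0.48 on the arrays of replicate 1, then 1.00 and 1.03 on those of replicate 2. Its mean was 0.75 ± 0.38 (SD, n = 2; limma unadjusted p = 0.0197186), and its log2 signals were 11.20 and 11.79 in Atg7F/F against 10.72 and 10.78 in Atg7+/+ extracts, without overlap. Sgcd, a sarcoglycan of the dystrophin complex, was at -0.28 ± 0.04 (limma unadjusted p = 0.0434709), and Utrn, the dystrophin relative utrophin, at -0.26 ± 0.14. Both were lower on all 4 arrays.

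Of the 16 basement membrane partners of laminin, 14 were tested, with 3 higher and 3 lower on all 4 arrays (10.6% and 9.95% of all genes) and a median of 0.16. Col15a1, a collagen that bridges the basement membrane and the matrix below it, had ratios of 0.71 and 0.59 (replicate 1) and 1.14 and 1.32 (replicate 2). Its mean was 0.94 ± 0.41 (SD, n = 2; limma unadjusted p = 0.0124641). Agrn, the laminin-binding proteoglycan agrin, was at 0.27 ± 0.09 and Col4a4, a collagen chain of basement membranes, at -0.28 ± 0.13. Each had one sign on all 4 arrays.

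Of the 21 integrin ligands other than laminin, 15 were tested, with 2 higher and 2 lower on all 4 arrays, shares near the 10.6% and 9.95% of all genes, and a median of -0.13. Fn1, which encodes fibronectin, the ligand of the Itga5 product, had ratios of -0.42 and -0.01 (replicate 1) and -0.63 and -0.27 (replicate 2). Its mean was -0.33 ± 0.17 (SD, n = 2; limma unadjusted p = 0.0496707). Ccn1, a matricellular ligand of several integrins, was at -0.23 ± 0.08 and Col3a1, a fibrillar collagen, at 0.68 ± 0.71 with 0.17 in replicate 1 and 1.18 in replicate 2. Of the 20 genes for integrin traffic and inhibition, 16 were tested, with 0 higher and 1 lower on all 4 arrays (10.6% and 9.95% of all genes) and a median of 0.01. That gene was Itgb1bp1, whose product binds the tail of the Itgb1 chain, at -0.16 ± 0.05. Itgbl1, an integrin-like secreted protein, and Slc3a2, a partner of beta chains, were at -0.30 ± 0.36 and 0.14 ± 0.11.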

How the data were processed

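RNA of 2 extracts per genotype was hybridized to 4 two-colour Agilent arrays. The authors' deposited scanner files hold spot intensity, background intensity, flags (no unit) and a log10 ratio, Cy5 to Cy3, per the file headers. The scanner software was Agilent Feature Extraction 10.1.1.1, as the submitters' processing notes and the headers give it. The authors' deposited value table holds log2 ratios. They equalled the log2 ratio of the software's processed signals, turned to Atg7F/F over Atg7+/+, within 0.001 for 100% of single-spot probes; column medians were 0.199, -0.094, 0.081 and -0.037.

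Mean intensities were background-corrected (normexp, offset 50, which shrinks ratios of dim spots), normalized by loess within arrays, turned by the labelled dyes and averaged over each dye swap in limma 3.58.1 (R 4.3.3). Spots of a probe were averaged. Probes without outlier spots and well above background in at least 1 genotype's channel on all 4 arrays were kept (17109, of which 33 read these genes), and the brightest probe stood for a gene. Ratios were tested against 0 (lmFit, eBayes, two-sided) with Benjamini-Hochberg adjustment over 12367 genes; the fit was tested on simulated data. Signals per extract were aligned between arrays (Aquantile). Extracts of one number shared an array, which pairs them, and their deviations from the genotype means correlated at 0.178 across genes.

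The subunits, the gene lists and the rule for genes described in full (one sign on all 4 arrays, a mean of at least 0.5 in size, an unadjusted p below 0.05, or probes at least 0.5 apart; of each list the 3 smallest p and those below 0.05) were chosen with earlier results of these data known. Background correction, normalization, filter, probe choice, prior, pairing and replicates were varied. The separate values of 1 tested subunit and 1 marker are not reported here; counts and medians include them.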

Additional observations from a re-analysis of the deposited data

How the results depend on the processing

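No subunit had an adjusted p below 0.05 in any fit; the smallest was 0.111, for Itgb4 with the 4 arrays taken as independent, and 0.371 with the extract pair as a random block. Over all genes, those fits called 25 and 9 genes, the fit with no replicate block 1, and the others 0. Itgb4 was lower on all 4 arrays under every alternative that uses them, with ratios from -0.65 to -0.52, and was at -0.66 without replicate 1 and -0.51 without replicate 2.

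The number of subunits higher on all 4 arrays was 2, beside 10.6% of all genes. It became 4 with normexp offset 0, with no background subtraction and with the mean over probes (11.8%, 10.6% and 10.9% of all genes). With the scanner software's processed signals and with the deposited table it was 5 (11% of all genes in each). Median centring gave 0, beside 4.86% of all genes, and moved the median of all genes to 0.04. The number lower was 2, beside 9.95% of all genes, and became 1 with median centring and with the mean over probes (2.14% and 10.2%). With no filter on dim probes, which adds Itgax, it was 3 of 35 subunits, beside 6.93% of 28293 genes. On the 2 arrays left without replicate 1 or without replicate 2, 9 to 10 were higher and 7 to 9 lower, beside 29.3% to 38.1% and 29.9% to 35% of all genes. With median centring Itga1 was at 0.0103 and Itga5 at 0.0159, and with the mean over probes Itgb1 at -0.0253, signs opposite to those reported. Itga4 reached -1.22 with the processed signals and with the deposited table, and Itgb3 was at 0.33 with the mean over probes. The cause was not tested.

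Leaving out 1 replicate gave the ratio of the other. Among the subunits reported here, the sign turned without replicate 1 for 4 genes, whose ratios over both omissions ran for Itga1 from -0.13 to 0.0879, Itga7 from -0.13 to 0.64, Itgb1 from -0.0053 to 0.14 and Itgb7 from -0.079 to 0.21. Without replicate 2 it turned for 9 further genes, with Itga3 from -1.33 to 0.575, Itga4 from -0.36 to 0.03, Itga5 from -0.57 to 0.41, Itga6 from -1.25 to 0.23, Itga9 from -0.0035 to 0.23, Itgb5 from -0.13 to 0.48, Lamb2 from -0.23 to 0.56, Lamb3 from -0.19 to 0.21 and Lamc1 from -0.0191 to 0.21. The ratios of Itga11 and Itgb3 without replicate 2 were 0.14 and 0.04. Probes near background limit what can be seen of dim subunits.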
